A study of Homo sapiens with 2 samples.

Results

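The IRF1 binding summits described here are those at 9 retinoic acid receptor and target genes, RARA, RXRA, ASB2, PLAAT4 (listed under its older symbol RARRES3), ICAM1, TNFAIP2, CYP26A1, DHRS3 and TGM2, in NB4 cells given all-trans retinoic acid (ATRA) for 4 hours. They were chosen by name. A summit was taken where the deposited annotation gives 1 of the 9 as its nearest gene, at any distance, or where it lies inside the RARA gene span. This gave 10 of the 1986 summits in the list. NB4 is an established line of acute promyelocytic leukemia with the PML-RARA fusion, and the study assayed IRF1, an interferon-responsive transcription factor, by ChIP-seq in 1 library of DMSO-treated control cells and 1 library of ATRA-treated cells. The list belongs to the ATRA library, and the control library was not analysed here, so no gain or loss under ATRA was measured. With 1 library per group there is no spread between replicates and no test.

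Retinoic acid binds nuclear receptors of the RAR family, which sit on DNA as heterodimers with RXR partners and recognise pairs of a short hexamer. The cell limits the signal by oxidising retinoic acid with CYP26 enzymes and by reducing its precursor retinaldehyde, a step that DHRS3 carries out. In acute promyelocytic leukemia the PML-RARA fusion holds target genes down, and ATRA releases them and drives the cells towards granulocytes. ASB2, PLAAT4, ICAM1, TNFAIP2 and TGM2 are known as genes that retinoic acid induces in such cells or in related ones. PLAAT4 and ICAM1 are also known to respond to interferon.

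Of the 9 genes, 5 had a summit assigned to them (RXRA, ASB2, PLAAT4, ICAM1 and TNFAIP2), with 8 summits between them. In the same list 6.38% of 19974 protein-coding genes were nearest to a summit at any distance. For the same 5 genes at least 1 summit lay within 10 kb of the transcription start site (TSS), against 3.36% of protein-coding genes. RARA was the nearest gene of none, but 2 further summits lay inside it. CYP26A1, DHRS3 and TGM2 were nearest to no summit. The 9 genes were picked with earlier results of these data known, so their share against the background is a description. RXRA, ICAM1 and TNFAIP2 had 2 summits each, while of the 1275 protein-coding genes with a summit of their own 11.1% had at least 2.

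The authors' peak score, which has no stated unit and is used only to order summits within this list, ran from 14.2 to 124 over the 10 summits. Their median was 28.6, against 25.2 for all 1986, and 6 of the 10 scored above the list median. None was among the 100 highest scores of the list, whose top value was 321. The order of the 10 was ASB2 (124), PLAAT4 (47.1), the distal RXRA summit (44.8), a RARA exon summit (42.5), the pair at ICAM1 (29.6 and 27.6), the other RARA exon summit (20.7), the distal TNFAIP2 summit (20.2), the RXRA promoter summit (16.8) and the proximal TNFAIP2 summit (14.2). The summits were thus spread over the ranks of the list, from ASB2 at rank 107 to the proximal TNFAIP2 summit at rank 1771, and ASB2 scored well above the other 9. By genomic class 4 were intergenic, 3 were at promoters, 2 were in exons and 1 was in an intron. The whole list was 36.8% intergenic, 19.3% promoter, 1.51% exon and 35.1% intron. Both exon summits entered only for lying inside RARA, a rule that admits no intergenic summit. The exon share is thus partly set by the choice of summits.

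**Figure D1:**
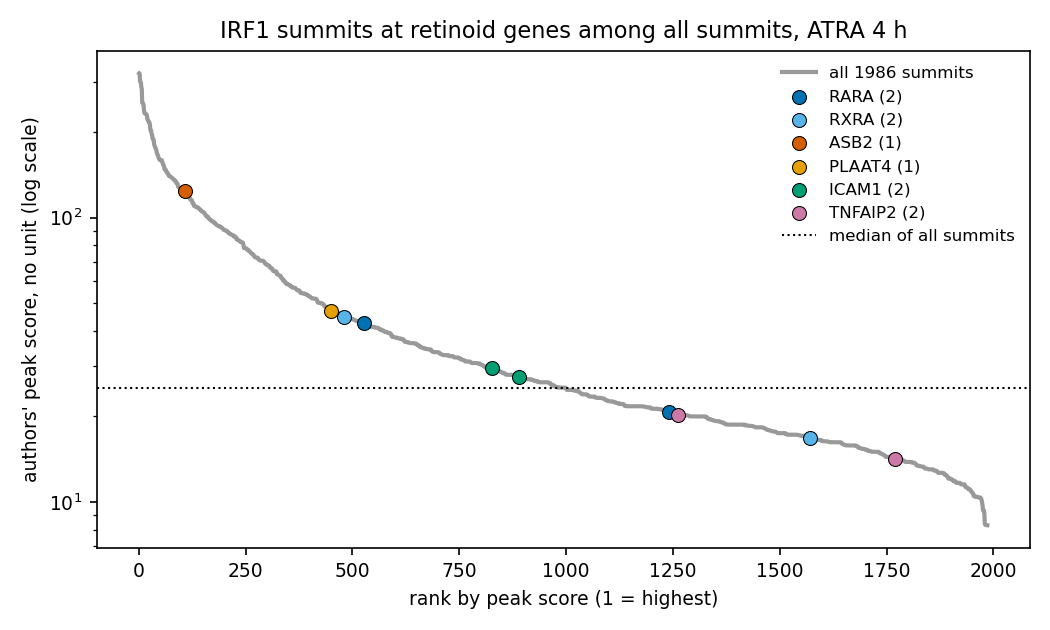
Peak score of each of the 1986 summits (grey line, log axis) against its rank, with the 10 summits at retinoid genes as coloured dots, the number per gene in brackets and the list median as a dotted line. ASB2 lies at rank 107, 6 dots lie above the median of 25.2, and the lowest is a TNFAIP2 summit at rank 1771.

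RARA, the receptor that the fusion disrupts, held its 2 summits near the 3′ end of the gene. Its span runs from 40309180 to 40357643 on chromosome 17 of hg38, a length of 48464 bp. A summit at position 40352461 lay in exon 6 of 9 of the annotated transcript, 89.3% of the way along the span, and had a score of 20.7. It exceeded 37.5% of all summits. The other, at position 40354415 in exon 7, 93.3% of the way along, had a score of 42.5, above 73.3% of all summits. The 2 positions were 1954 bp apart. Of the 30 summits that the annotation puts in exons they ranked 22 and 9 by score, against an exon median of 25.3, so neither was extreme for its class.

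Neither summit is listed under RARA itself. The annotation gives the antisense gene RARA-AS1 as nearest for the exon 6 summit, at -9325 bp, and the gap junction gene GJD3 as nearest for the exon 7 summit, at 10278 bp. The closest RARA start site in the RefSeq table, at position 40342166, lay 10295 bp and 12249 bp upstream of them. These 3′ exons are kept in the PML-RARA fusion, so reads from the normal and the rearranged gene cannot be told apart in this list. No summit outside RARA lay within 100 kb of either.

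The RefSeq table of build GRCh38.p14 holds 3 promoter windows for RARA, each of 250 bases before and 50 bases after a start site. In the most upstream of them, around position 40309180, 2 different hexamers of the kind that retinoid receptors bind were found. They are shown, with the match in capitals, because they are receptor-type letters at the gene of the receptor itself. AGGTCA lies on the strand of the gene from -230 to -225, and GGGTCA lies on the other strand from -92 to -87.
RARA, chr17:40308938-40308967, plus strand: ttctcctgtttcAGGTCAtcctatcctcga
RARA, chr17:40309076-40309105, plus strand: ctctgcgcccgcTGACCCagtcggggctgg
Such single hexamers are frequent. On either strand AGGTCA occurred in 13.8% of the 35116 promoter windows of the table and GGGTCA in 14.1%, and neither RARA match lies near a summit.

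RXRA, the partner receptor for RAR, had a weak summit at its promoter and a stronger one beyond its 3′ end. The promoter summit, at chromosome 9 position 134325503, lay 960 bp upstream of the TSS with a score of 16.8, lower than all but 20.9% of the list and below the promoter class median of 27.6. The distal summit, at position 134476096, scored 44.8, above 75.4% of all summits and 76.3% of intergenic ones. It was assigned to RXRA at 69514 bp from an internal RXRA start site. The summit lies 35511 bp past the end of the RefSeq span of RXRA. A non-coding RNA gene of the newer RefSeq table, LOC105376311, begins 441 bp from it, so the assignment to RXRA depends on which gene models are used. The 2 RXRA summits were 150593 bp apart, and no other summit lay within 100 kb of either.

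ASB2 had the highest score of the group. ASB2 encodes the substrate-binding subunit of a ubiquitin ligase that targets filamins. Its only summit, at chromosome 14 position 93971163, scored 124, rank 107 of 1986 and rank 27 of the 698 intronic summits, whose median was 24.8. It lay in intron 1 of 9, 5567 bp downstream of the TSS in the authors' annotation and 5407 bp from the RefSeq start. The next summit was 867301 bp away, in the inositol kinase gene ITPK1 with a score of 285, whereas the median gap to the next summit over the list was 236 kb.

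PLAAT4, a small phospholipase and acyltransferase known as a retinoid-induced growth inhibitor, had the summit closest to a TSS. At chromosome 11 position 63536833 it lay 32 bp downstream of the TSS, with a score of 47.1. This exceeded 77.1% of all summits and 71.1% of the 384 promoter summits. A stronger summit lay 37.9 kb away, at position 63574723 with a score of 105. Its nearest TSS was that of PLAAT2, a gene of the same family, and it lay 11340 bp upstream of that TSS, outside PLAAT2, in a 3′ UTR by its annotated class.

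ICAM1, the adhesion molecule that leukocyte integrins bind, had a pair of summits upstream of its TSS with nearly the same score. The summit at chromosome 19 position 10270481, at -360 bp, scored 27.6, and the summit at position 10269668, at -1173 bp, scored 29.6. They exceeded 55.2% and 58.4% of all summits and were 813 bp apart. The upstream summit is classed as intergenic with a CpG island in the detailed annotation, and the 108 summits with that label had a median score of 27.3. By the RefSeq start the same positions are -639 and -1452 bp. The nearest summit outside ICAM1 was 17.5 kb from the upstream one, in the mitochondrial ribosomal protein gene MRPL4, with a score of 27.8.

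The RefSeq promoter of ICAM1 begins downstream of both summits, and it is shown because it carries 2 known types of inflammatory site. Its 250 bases before the start, chr19:10270870-10271119, plus strand, GRCh38.p14, are given with the matches to TTCNNNGAA (a STAT-type site), GGAAATTCC (an NF-kB type site) and GGGTCA in capitals.
ICAM1: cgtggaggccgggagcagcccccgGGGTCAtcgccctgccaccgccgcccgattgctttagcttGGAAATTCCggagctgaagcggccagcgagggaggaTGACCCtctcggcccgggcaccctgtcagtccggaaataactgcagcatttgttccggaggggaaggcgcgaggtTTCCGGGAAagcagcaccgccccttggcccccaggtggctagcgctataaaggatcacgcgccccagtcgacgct
On either strand, TTCNNNGAA was present in 7.66% of all promoter windows and GGAAATTCC in 0.461%. The interferon response core GAAANNGAA had no match in this window, which says nothing of the bases under the summits themselves, since these lie outside it.

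TNFAIP2, a TNF-inducible protein related to an exocyst subunit, had 2 upstream summits with low scores. The summit at chromosome 14 position 103119166, at -7161 bp, scored 14.2 and exceeded 10.3% of the list. The summit at position 103115215, at -11112 bp, scored 20.2 and exceeded 35.5%. By the start site of the RefSeq promoter table they lie at -4295 and -8246 bp, so both come within 10 kb under that annotation. The RefSeq start of LINC00677 is nearer to both, at 3743 and 7694 bp, so the assignment to TNFAIP2 depends on which gene models are used. The distal summit is inside an endogenous retroviral repeat, MER51A. Of 18 summits in MER51A copies, which had scores from 11.7 to 133 and a median of 22.7, it ranked 13. Another summit, with a score of 22.4 and assigned to EXOC3L4, a neighbour of the same family as TNFAIP2, lay 20.6 kb from the distal one.

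**Figure D2:**
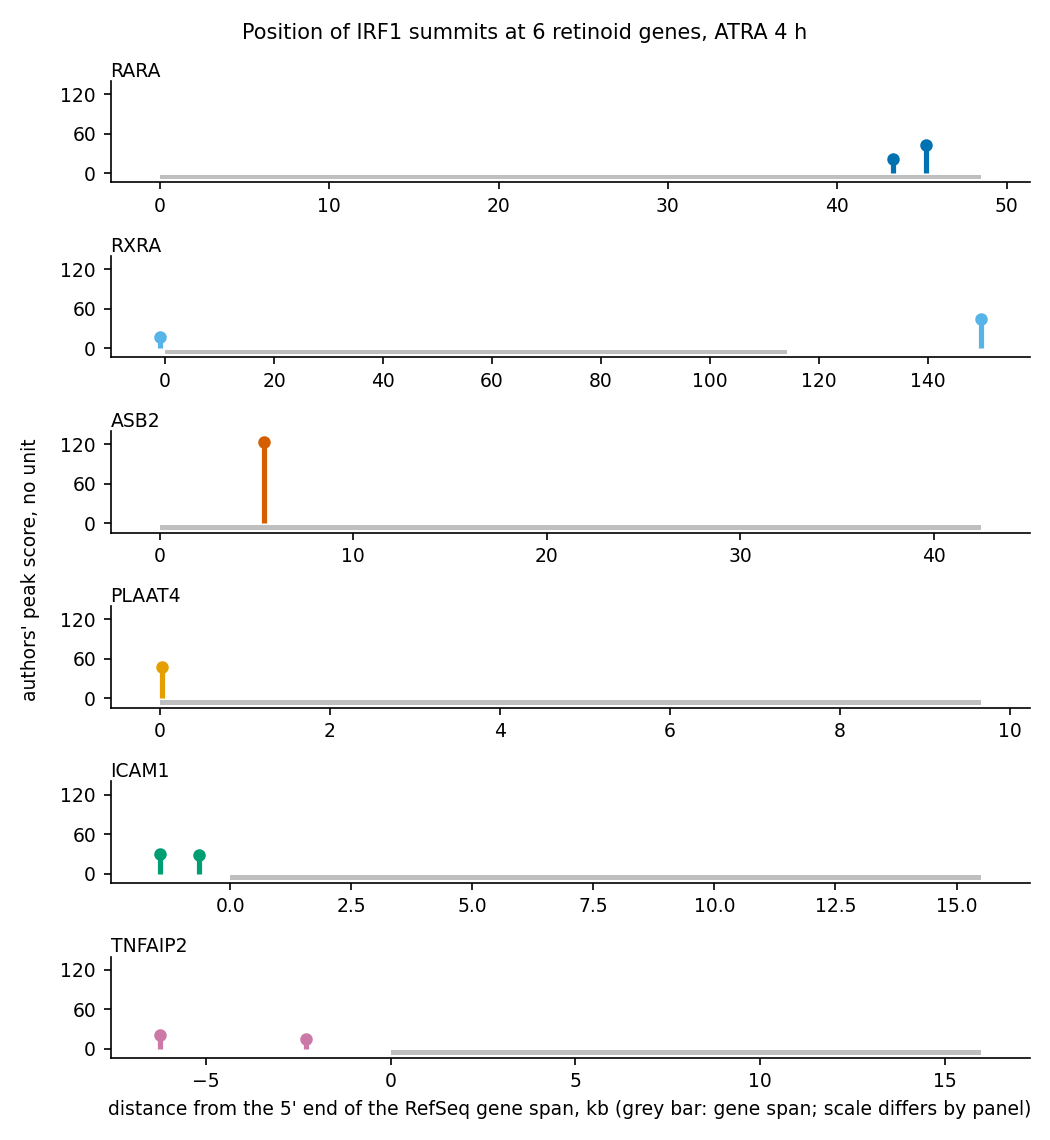
Position and score of the 10 summits along 6 retinoid genes, 1 panel per gene, with the distance from the 5′ end of the RefSeq span in kb on the horizontal axis (scale differs by panel), the authors' score on the vertical axis and the gene span as a grey bar. The RARA summits sit near the 3′ end, those of ICAM1 and TNFAIP2 before the 5′ end, and the ASB2 stem of 124 is the tallest.

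The 3 remaining genes had no summit nearby. For CYP26A1, the enzyme that clears retinoic acid, the nearest summit was 309 kb from the gene span, in an intron of the membrane repair gene MYOF at position 93387153 of chromosome 10, with a score of 39.2. For DHRS3 it was 659 kb away, at the small nuclear RNA gene RNU5E-1 (22.3), and for TGM2, a transglutaminase that cross-links proteins, 674 kb away in an intron of the phosphatase subunit gene PPP1R16B (29.7). Over 19974 protein-coding genes the median gap from span to nearest summit was 363 kb, with quartiles of 115 and 882 kb. The gaps of the 3 genes thus lay within or near the middle of the range, larger than those of 46.1%, 66.9% and 67.6% of genes. In contrast RXRA, ICAM1 and TNFAIP2 had gaps of 952, 639 and 2303 bp, and RARA, ASB2 and PLAAT4 held a summit inside the span. With spans extended by 10 kb, 6 of the 9 genes held a summit, against 7.45% of protein-coding genes. An absent summit does not show absent binding, because the read depth and the background of the calling are unknown here.

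**Figure D3:**
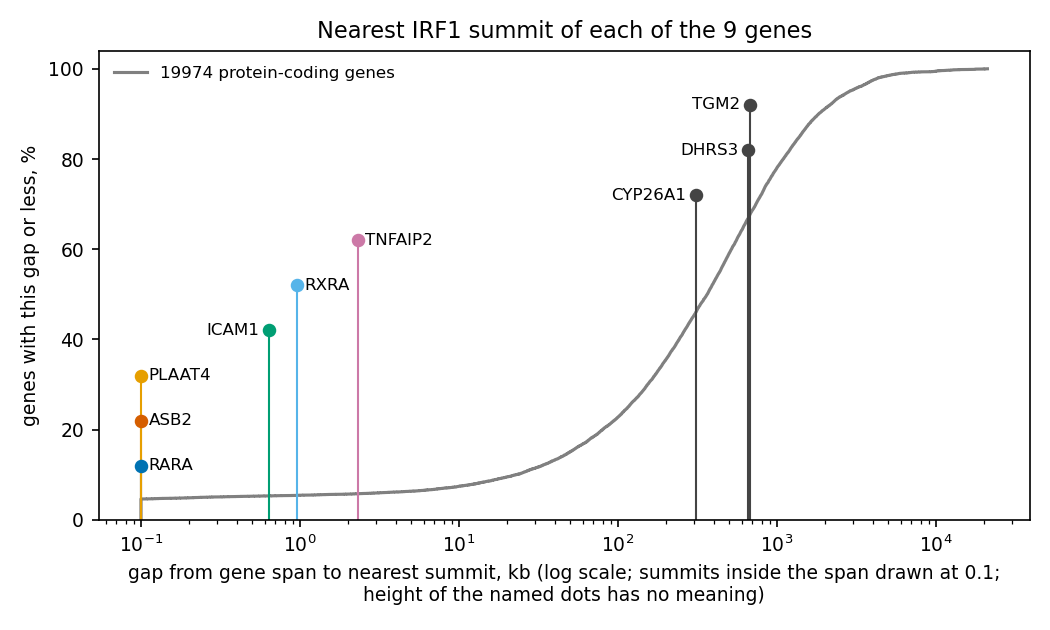
Cumulative share of 19974 protein-coding genes by the gap from the gene span to the nearest summit in kb (grey line, log axis), with a vertical line of arbitrary height at the gap of each of the 9 genes. CYP26A1, DHRS3 and TGM2 lie at 309 to 674 kb, on the middle of the curve, and the other 6 genes lie at or below 2.30 kb.

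CYP26A1 is nevertheless the gene of the group with both a receptor-type repeat and the interferon response core, in separate promoter windows at different start sites. The stretches are shown for that reason. The 250 bases before its downstream start site, chr10:93073643-93073892, plus strand, GRCh38.p14, hold on the reverse strand a direct repeat of retinoid receptor hexamers with 5 bases between them (DR5), in capitals, from -90 to -74.
CYP26A1: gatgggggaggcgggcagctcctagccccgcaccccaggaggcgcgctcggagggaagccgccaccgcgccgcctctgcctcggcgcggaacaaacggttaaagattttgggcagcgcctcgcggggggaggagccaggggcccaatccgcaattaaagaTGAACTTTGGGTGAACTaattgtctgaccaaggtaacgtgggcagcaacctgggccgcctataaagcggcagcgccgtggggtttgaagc
The repeat was allowed on either strand, from any 2 of the 4 hexamers searched. It was found in 0.0883% of the 35116 windows. This wider definition was added after the sequences were seen. The stricter repeat of AGGTCA alone after 5 bases was in 2 of the 35116 windows and in none of the 14 windows of the 7 matched genes, and repeats of the 4 hexamers after 2 bases (DR2, in 0.0399% of all windows) and after 1 base (DR1, in 0.131%) were in none of the 14 either. Of 49 retinoid pathway genes, 37 matched the table, and the repeat was found in CYP26A1 and in the receptor gene RARB, from -53 to -37 there. The RARB repeat contains a TTCNNNGAA match.
RARB, chr3:25428203-25428232, plus strand: cgggtagGGTTCACCGAAAGTTCActcgca
At the upstream start site of CYP26A1 the interferon response core GAAANNGAA was found from 10 to 18 bases after the start, followed by a further A.
CYP26A1, chr10:93073474-93073503, plus strand: ccggcacctgGAAATGGAAAgccagtgaag
The core was thus in 1 of the 14 windows of the 7 matched genes, a share near the 8.11% of all windows that held it, and CYP26A1 had no summit.

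Across all genes the core was more frequent where IRF1 was. Of the 35116 windows 302 held a summit, and 43.7% of these (95% Wilson interval 38.2 to 49.3) contained GAAANNGAA on either strand, against 8.11% of all windows (7.83 to 8.40). With a further A the shares were 38.7% and 3.57%. For TTCNNNGAA they were 7.62% and 7.66%, a difference within the counting error. No window with a summit held a DR5 repeat, and the 95% Wilson interval of that share reaches 1.26%. The share thus cannot be told from the 0.0883% of all windows. For the retinoid genes this measure was silent, since none of the 14 windows of the 7 matched genes contained a summit. PLAAT4, whose summit lay 32 bp downstream of its TSS, had no promoter window to search. Of the 4 hexamers, AGGTCA matched windows of RARA, DHRS3 and TNFAIP2, and GGGTCA matched RARA, RXRA and ICAM1. GGTTCA, found in 8.62% of all windows, matched ASB2 and DHRS3. AGTTCA, found in 10.4%, matched CYP26A1. PLAAT4 and TGM2 were not matched.

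The wider pathway was described with 49 genes grouped by role, which include the 9. The 49 were chosen with earlier results of these data known, so their shares against the background are a description. Within 10 kb, 7 of 49 had a summit assigned to them (14.3%), and of the 40 genes outside the 9 it was 2 (5.00%), against 3.36% of protein-coding genes. Both belonged to the 16 target genes, of which 6 had such a summit, with ASB2, PLAAT4, ICAM1 and TNFAIP2 among these 6. UBA7, the activating enzyme for the ubiquitin-like protein ISG15, had a summit 6 bp upstream of its TSS with a score of 68.8, above 85.1% of the list. CXXC5, a CXXC zinc finger gene, had a summit at -1592 bp with a score of 29.4 and 3 more in its intron. Of 6 receptors only RXRA passed, and of 8 coregulators, 13 genes of retinoid supply, 3 binding proteins and 3 degrading enzymes none did.

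Several pathway genes had a summit in or near the gene but more than 10 kb from their own TSS. These genes were named after their values were seen. The coactivator genes NCOA3 (24.8) and NCOA2 (31.2) had 1 intronic summit each. In the supply group DHRS9, a retinol dehydrogenase, had an exon summit (20.2), and BCO1, which cleaves carotene to retinaldehyde, had an intronic one (19.3). RARG, another retinoic acid receptor, had a summit with a score of 83.1 at 1484 bp past its 3′ end, assigned to the integrin gene ITGB7. A summit 2400 bp from ALDH1A3, which makes retinoic acid, was at the promoter of LRRK1 (21.3). With spans extended by 10 kb, 9 of the 40 genes outside the 9 held a summit (22.5%), against the 7.45% given above for protein-coding genes. By role, over all 49 genes, it was 3 of 6 receptors, 3 of 8 coregulators, 3 of 13 supply genes and 6 of 16 targets. Summits by this measure were thus not confined to targets.

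**Figure D4:**
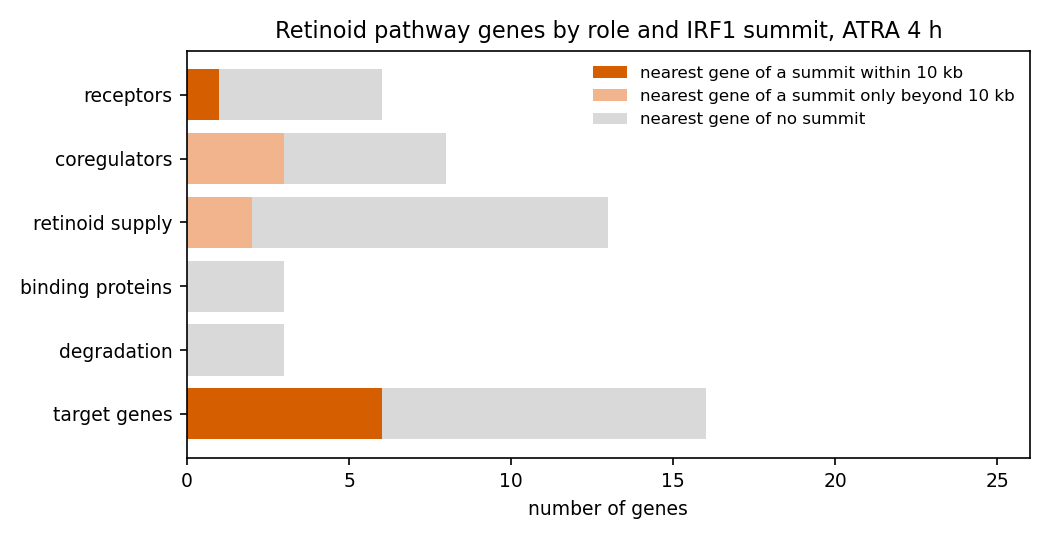
Number of retinoid pathway genes per role (horizontal axis) with an assigned summit within 10 kb of the TSS, only beyond 10 kb, or of none. Target genes account for 6 of the 7 genes with a summit within 10 kb, and RXRA is the other. Those 6 include ASB2, PLAAT4, ICAM1 and TNFAIP2 of the 9 genes. Genes and roles were chosen with earlier results of these data known.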

How the data were processed

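The file is a list of 1986 summits of 1 library, the ATRA library by the header's peak file name. The submitters' processing notes name MACS 1.4.2, Bowtie2 2.2.9 and hg38, and summits were annotated with HOMER's annotatePeaks.pl, per the file headers. The deposited peak score is the authors' value on a scale not given in the sources used here. The background of the calling and the read depth are not given either. From the list, scores were ranked, and distances, nearest genes and classes were taken as deposited. Genes were matched by Entrez identifier to RefSeq GRCh38.p14, which also supplied spans and promoter sequences, with 7 of 9 genes matched to the latter. Positions are 1-based. Distance, rank and motif functions were tested on simulated data. Wilson intervals have 95% confidence and cover counting error only. Python 3.11.15, pandas 2.3.3 and scipy 1.17.1 were used.

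The 9 genes, the pathway list and the motifs were chosen with earlier results of these data known. The hexamers other than AGGTCA and GGTTCA, their repeats DR5, DR2 and DR1, and the NF-kB type site were added after the sequences were seen. Named genes were the 9, other pathway genes with a summit within 10 kb, neighbouring summits within 100 kb, and the gene of the nearest summit where the list has none. Pathway genes with a nearby summit more than 10 kb from their own TSS were named after their values were seen. So were the genes nearest to these summits, and RARB for its promoter repeat. Sequence around the summits was not used here. Values of 1 pathway gene are not reported here. Alternatives were other distance limits, scores above the list median, extended spans, summits under 200 bp apart merged, a stricter interferon core, RefSeq start sites, and leaving out the RARA summits.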

Additional observations from a re-analysis of the deposited data

How the results depend on the processing

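No paired analysis was possible because only the ATRA library had a list, and no replicate could be left out. The number of the 9 genes with a summit within 10 kb, 5, was 3 within 1 kb and 3 within 5 kb (PLAAT4, ICAM1 and RXRA), since ASB2 and TNFAIP2 drop out by distance. With scores above the list median it was also 3, since RXRA and TNFAIP2 then drop out, and 1 of the 2 RARA summits was left. It was 5 within 100 kb and 5 with all RefSeq start sites. PLAAT4 has no start site among the RefSeq promoter windows, so the latter count does not place it by such a site. At any distance the number was 5, with 4 for scores above the median and 6 for extended spans. The median share of the list scoring lower than the 10 summits was 56.8%, 53.8% among summits within 10 kb of a TSS, 56.6% after merging and 56.8% without the RARA summits. Of 49 pathway genes 7 had a summit within 10 kb, 4 within 1 kb, 11 within 100 kb and 15 with extended spans. The stricter interferon core left CYP26A1 as the single matched gene. Read depth per summit is unknown, which limits every statement about an absent summit.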

Other observations

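Peak scores repeat. The 1986 summits had 1046 distinct scores, and 61.5% of summits shared their score with at least 1 other. Of the 10 summits at retinoid genes 6 did so, among them the distal TNFAIP2 summit, whose score is held by 21 summits of the list, and the distal RXRA summit, whose score is held by 9. Scores of ASB2 and of both ICAM1 summits were unique. Ranks within such ties carry no order.

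Gene models moved distances at several of the 9 genes. The TNFAIP2 start site of the authors' annotation and that of RefSeq put the proximal summit at -7161 and -4295 bp, the ICAM1 ones put the nearer summit at -360 and -639 bp, and the distal RXRA summit lay 69514 bp or 96801 bp from an RXRA start.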
